A study of Mus musculus with 4 samples.

Results

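The genes described here are 4 members of the suppressor of cytokine signalling (SOCS) family, Socs1, Socs3, Cish and Socs2, taken by gene symbol from the 32285 genes of a mouse spleen single-cell RNA sequencing series. The series holds 4 libraries, 1 per group, and sets the TNF response of spleens labelled TRIF-KO beside that of wild-type spleens. The groups were mice labelled TRIF-KO on the C57BL/6 background given TNF, TRIF-KO mice given PBS, C57BL/6 mice (WT) given TNF, and WT mice given PBS. All were 10 weeks old, received 100 µl into a vein, with 9 µg recombinant murine TNF in the TNF groups, and were killed 4 h later. TRIF is the product of Ticam1 and carries signals from the Toll-like receptors TLR3 and TLR4. All spleen suspensions went through red cell lysis and magnetic removal of dead cells, and the labels do not give the number of mice per library. No difference could therefore be tested against the spread between mice, and every interval below covers counting error only.

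SOCS proteins are made in response to cytokines and switch the same cytokine signals off. Cytokine receptors of the JAK-STAT type activate Janus kinases (JAKs), which phosphorylate the transcription factors called STATs, and STATs switch on SOCS genes. Each member has an SH2 domain that binds phosphotyrosine and a SOCS box that recruits a ubiquitin ligase. Socs1 and Socs3 also carry a short kinase inhibitory region that blocks JAKs directly. Socs1 is best known for restraining interferon-gamma signalling, and Socs3 for restraining signals through gp130 (the interleukin-6 family) and the granulocyte colony-stimulating factor receptor. Cish and Socs2 are classical STAT5 target genes, Cish in interleukin-2 signalling of T cells and Socs2 in growth hormone signalling. TNF receptors themselves are not JAK-coupled.

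The 4 genes lie on different chromosomes of the mouse genome build GRCm38. Socs1 (ENSMUSG00000038037) is at chr16:10782240-10785536 on the minus strand and Socs3 (ENSMUSG00000053113) at chr11:117966079-117970047 on the minus strand. Cish (ENSMUSG00000032578) is at chr9:107296026-107302784 on the plus strand and Socs2 (ENSMUSG00000020027) at chr10:95385362-95417180 on the minus strand, all in the GENCODE M21 annotation. The RefSeq promoter table (GRCm38.p6, 250 bases before to 50 after a transcription start) had entries for 3 members, Socs1, Socs3 and Cish. These windows were searched on both strands for the STAT motif TTCNNNGAA, an interferon regulatory factor motif (GAAA, any 2 bases, GAAA) and an NF-kB motif (GGG, any 2 bases, TTTCC). The stretches of 30 bases that hold the matches are shown because STATs and interferon regulatory factors are the textbook inducers of these genes, with the matched letters in capitals, 5′ to 3′ on the gene's strand:
Socs1 promoter: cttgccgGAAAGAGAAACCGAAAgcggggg
Socs3 promoter: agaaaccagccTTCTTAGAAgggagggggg
Cish promoter: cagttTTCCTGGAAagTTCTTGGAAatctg
The Socs1 stretch (chr16:10785597-10785626, upstream of the gene) holds 2 overlapping copies of the interferon regulatory factor motif. In the Socs3 stretch (chr11:117969502-117969531), which lies in an intron of a longer GENCODE transcript, there is 1 copy of TTCNNNGAA. The Cish stretch (chr9:107296654-107296683), which overlaps the first bases after the RefSeq start and an untranslated exon, holds 2 copies of TTCNNNGAA. Among all 32851 promoter windows of this length, 8.30% held the STAT motif, 3.44% the interferon regulatory factor motif and 1.63% the NF-kB motif. The NF-kB motif had no match in these 3 windows. A match describes letters and is not evidence of binding.

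Across the libraries, 6662 TRIF-KO TNF, 5403 TRIF-KO PBS, 5033 WT TNF and 2452 WT PBS cells were kept, with medians of 7198, 4408, 4678 and 6884 UMIs. In WT TNF 22.4% of barcodes were over the limit for mitochondrial UMIs, a sign of RNA quality, against 11.6% in TRIF-KO TNF, 10.8% in TRIF-KO PBS and 6.26% in WT PBS, and the part of this in the results was not tested. A UMI is a molecular barcode, so that copies of the same captured RNA are counted once. Cells fell into 41 clusters, which were called after marker genes, and 1176 of 19550 cells stayed unnamed. The 8 classes with at least 50 cells in every library were T-like, B-like, NK-like, monocyte-like, neutrophil-like, conventional dendritic (cDC-like), macrophage-like and erythroid-like cells, which gives 32 pairs of a member and a class. Ticam1 had 343 UMIs in TRIF-KO TNF, 252 in TRIF-KO PBS, 116 in WT TNF and 154 in WT PBS cells. Counts from one end of a transcript do not show whether the protein is lost, so the libraries are called by their labels.

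Levels are UMIs of a gene per 1000000 UMIs of a class (CPM). Over all kept cells, Socs3 was the most abundant member after TNF, with 99.9 CPM in TRIF-KO TNF, 19.4 in TRIF-KO PBS, 194 in WT TNF and 42.8 in WT PBS cells. Socs1 had 31.8 CPM in TRIF-KO TNF, 19.6 in TRIF-KO PBS, 74.0 in WT TNF and 16.7 in WT PBS cells. T-like cells held 71.0%, 70.8%, 76.7% and 58.9% of the Socs1 UMIs of these libraries. Cish and Socs2 were scarce, at 4.38 to 9.79 CPM and 0.847 to 6.00 CPM over all cells. Most Socs2 UMIs came from cDC-like cells in 3 of the 4 libraries, with shares of 61.1% in TRIF-KO TNF, 60.9% in TRIF-KO PBS and 60.99% in WT TNF, whereas WT PBS had 19 Socs2 UMIs in all.

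**Figure D1:**
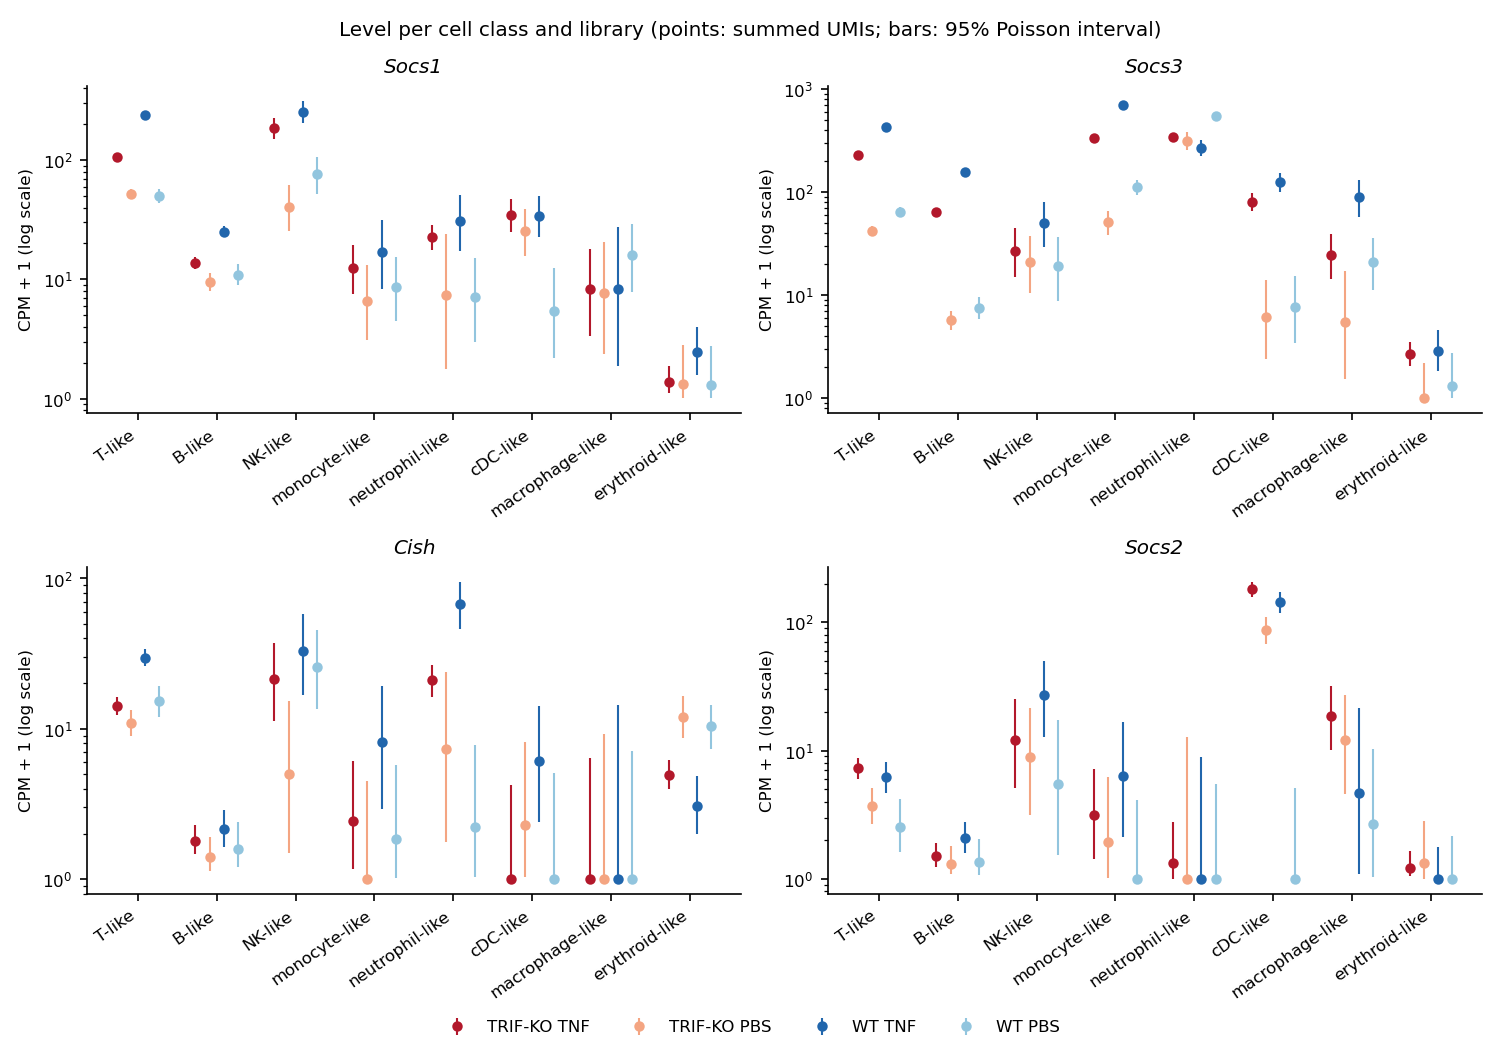
Level of each member (CPM + 1, log scale) in 8 cell classes. Each point is 1 library, in the order TRIF-KO TNF, TRIF-KO PBS, WT TNF and WT PBS within a class, and bars are 95% Poisson intervals of the summed UMIs. Socs3 stands highest in monocyte-like, neutrophil-like and T-like cells, Socs1 in NK-like and T-like cells, and Socs2 in cDC-like cells of 3 libraries.

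With TNF against PBS, 10 of the 32 member-class pairs were at least 2-fold higher in the libraries labelled TRIF-KO, with an exact 95% counting interval on one side of 1, and 1 pair was at least 2-fold lower. The same rule gave 16 pairs higher and 2 lower in WT. In each comparison 24 of the 32 pairs had the 10 UMIs that the rule requires. Over all 74070 gene-class pairs with 10 UMIs, 5.41% were higher and 7.63% lower in TRIF-KO. Over 68112 such pairs, 7.04% were higher and 10.9% lower in WT. By gene, Socs3 was higher in 5 of 8 classes in TRIF-KO and in 6 of 8 in WT. Socs1 was higher in 2 TRIF-KO classes and 5 WT classes, Socs2 in 2 TRIF-KO and 3 WT classes, and Cish in 1 TRIF-KO and 2 WT classes. The pairs that were lower were Cish in erythroid-like cells in both genotypes and Socs3 in neutrophil-like cells in WT.

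**Figure D2:**
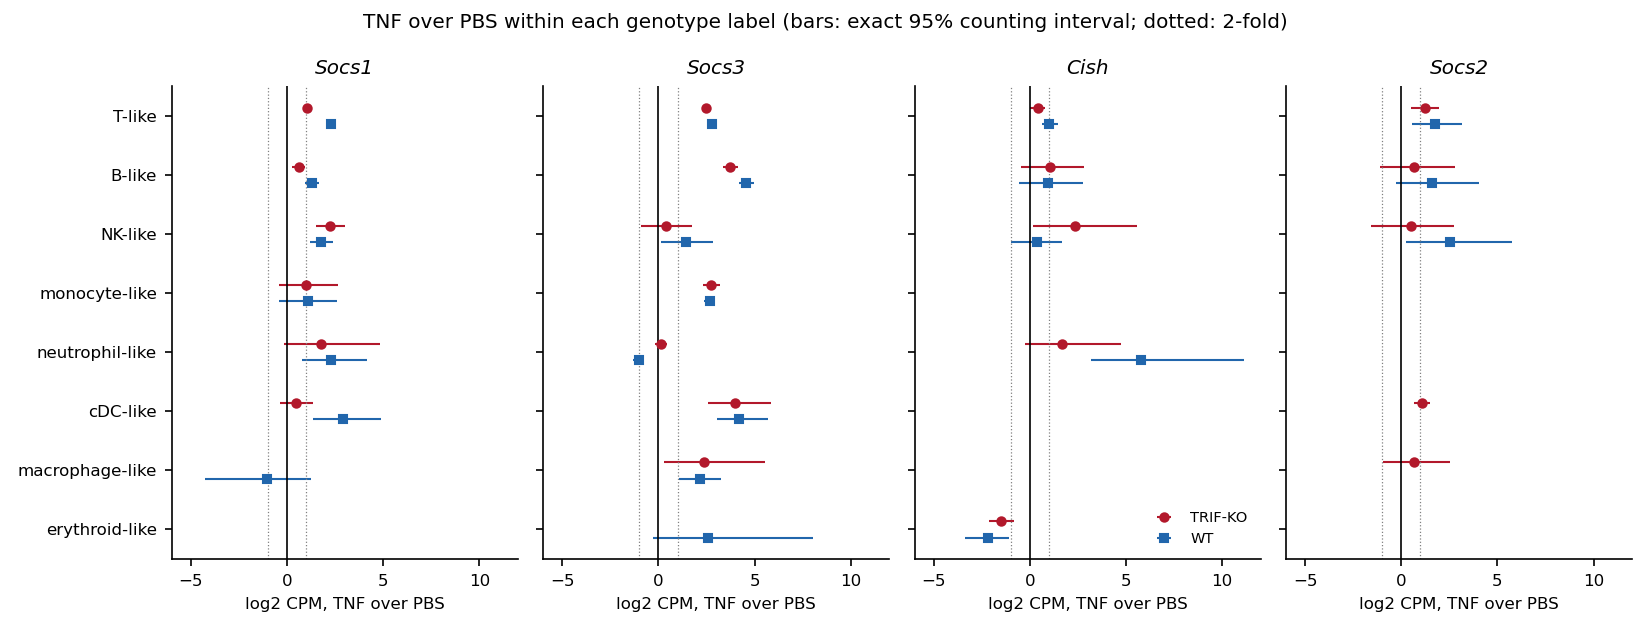
Log2 ratio of CPM with TNF over PBS for each member and class, for TRIF-KO (circles) above WT (squares), with exact 95% counting intervals. Pairs with under 10 UMIs, or with no UMI in one library, are not drawn, and dotted lines mark 2-fold. Socs3 lies right of the dotted line in T-like, B-like, monocyte-like, cDC-like and macrophage-like cells of both genotypes and left of 0 only in WT neutrophil-like cells.

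Socs1, which blocks JAKs downstream of the interferon-gamma receptor, was a gene of T-like and NK-like cells. In T-like cells it had 105.5 CPM in TRIF-KO TNF, 50.7 in TRIF-KO PBS, 237 in WT TNF and 49.2 in WT PBS. The PBS libraries thus lay side by side, and both TNF libraries lay above them, WT TNF highest. The log2 ratio of TNF to PBS was 1.06 (1345 and 413 UMIs, interval 0.90 to 1.22) in TRIF-KO and 2.27 (1721 and 221 UMIs, 2.07 to 2.48) in WT. The difference between these responses was -1.21 log2 units (-1.47 to -0.95). A Socs1 UMI was found in 47.6% of TRIF-KO TNF, 22.4% of TRIF-KO PBS, 70.5% of WT TNF and 31.3% of WT PBS T-like cells. After thinning every cell to 2000 UMIs these shares were 19.1%, 10.3%, 34.8% and 9.87%. Free RNA in droplets also gives UMIs to cells that do not express a gene. The share in erythroid-like cells, without thinning, was 0.565%, 0.395%, 1.76% and 0.493% in the same order, at median depths of 14260, 12090, 12840 and 16200 UMIs. T-like cells were shallower, with medians of 8842, 5982, 6378 and 9402 UMIs.

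In NK-like cells Socs1 stood at 185 CPM in TRIF-KO TNF, 39.7 in TRIF-KO PBS, 254 in WT TNF and 74.8 in WT PBS. The TNF libraries lay above both PBS libraries in this class as well. The ratio was 2.22 on the log2 scale (1.52 to 2.995) in TRIF-KO and 1.76 (1.17 to 2.39) in WT, with a difference of 0.44 whose interval reached from -0.45 to 1.34. In the order of levels, NK-like and T-like cells did not differ beyond their intervals in TRIF-KO PBS, WT TNF and WT PBS, while NK-like cells were above T-like cells in TRIF-KO TNF. B-like cells had far less Socs1, with 12.8 CPM in TRIF-KO TNF, 8.48 in TRIF-KO PBS, 24.1 in WT TNF and 9.98 in WT PBS. There the WT ratio was 1.27 on the log2 scale (0.92 to 1.64) and the TRIF-KO ratio 0.60 (0.27 to 0.94), which is under 2-fold.

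Myeloid classes had less Socs1 than T-like cells in every library. Neutrophil-like cells had 67 UMIs in TRIF-KO TNF, 2 in TRIF-KO PBS, 14 in WT TNF and 5 in WT PBS, or 21.6, 6.36, 30 and 6.06 CPM. The WT ratio there was 2.31 (0.75 to 4.13), and the TRIF-KO ratio was 1.76 with an interval from -0.15 to 4.84. In cDC-like cells Socs1 had 33.9 CPM in TRIF-KO TNF, 24.3 in TRIF-KO PBS, 33.2 in WT TNF and 4.44 in WT PBS, the last from 4 UMIs. The response difference of -2.29 (-3.93 to -0.65) in this class rests on those 4 UMIs and on few TRIF-KO PBS cells. Of the 19 TRIF-KO PBS UMIs, 16 came from 2 of the 6 TRIF-KO PBS cells of cluster 39, 13 of them from 1 cell. Cluster 39 held no cell of the TNF libraries. Without the cell with most UMIs the response difference was -1.69 and no longer met the rule. Monocyte-like cells had 6 to 16 Socs1 UMIs per library and macrophage-like cells 2 to 9. No ratio of TNF to PBS met the rule in these 2 classes.

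Socs3, the inhibitor of gp130 signalling, was the member with the widest response. In T-like cells it had 229.5 CPM in TRIF-KO TNF, 41.4 in TRIF-KO PBS, 428 in WT TNF and 63.0 in WT PBS. Both TNF libraries were far above both PBS libraries. The log2 ratio of TNF to PBS was 2.47 (2.31 to 2.64) in TRIF-KO and 2.77 (2.59 to 2.95) in WT, with a difference of -0.29 (-0.53 to -0.05). Shares of T-like cells with a Socs3 UMI were 63.5% in TRIF-KO TNF, 20.3% in TRIF-KO PBS, 82.9% in WT TNF and 34.8% in WT PBS. Thinned to 2000 UMIs they were 32.2%, 8.49%, 53.0% and 9.87%. Erythroid-like cells showed a Socs3 UMI in 1.81%, 0%, 1.76% and 0.493% of cells, the 0 of 253 TRIF-KO PBS cells allowing a share with a UMI of up to 1.19%.

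B-like cells had 63.2 CPM in TRIF-KO TNF, 4.71 in TRIF-KO PBS, 155 in WT TNF and 6.54 in WT PBS. A class nearly without Socs3 RNA in both PBS libraries thus carried it in both TNF libraries. On the log2 scale the ratio was 3.74 (3.37 to 4.14) in TRIF-KO and 4.57 (4.18 to 4.98) in WT. The share of B-like cells with a Socs3 UMI was 24.2% in TRIF-KO TNF, 1.78% in TRIF-KO PBS, 35.5% in WT TNF and 4.08% in WT PBS. Markers of neutrophils, a class rich in Socs3, moved with treatment in the lymphoid classes: all 10 had a UMI in B-like cells, and their sum was 193 CPM in TRIF-KO TNF, 21.3 in TRIF-KO PBS, 93.0 in WT TNF and 43.3 in WT PBS. In neutrophil-like cells the same markers summed to 336200, 225000, 275300 and 190800 CPM beside 268 to 549 CPM of Socs3. In T-like cells the neutrophil markers summed to 166 CPM in TRIF-KO TNF, 12.6 in TRIF-KO PBS, 62.0 in WT TNF and 37.6 in WT PBS. B-like cells of the TNF libraries thus had 63.2 and 155 CPM of Socs3 beside 193 and 93.0 CPM of these markers, and the part of neutrophil RNA in the result was not tested.

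In WT TNF, monocyte-like cells had the highest Socs3 level of the 8 classes. They had 335 CPM in TRIF-KO TNF, 49.9 in TRIF-KO PBS, 696 in WT TNF and 110 in WT PBS. The 4 libraries are ordered by treatment first and genotype second. Log2 ratios of TNF to PBS were 2.75 (2.34 to 3.19) in TRIF-KO and 2.66 (2.37 to 2.96) in WT, and the responses differed by 0.08 (-0.42 to 0.58). Different clusters held the class in the TNF and PBS libraries: 89 of 90 TRIF-KO TNF and all 54 WT TNF cells were in cluster 22, led by Saa3 and Ms4a6d. The PBS cells were in cluster 27, led by F13a1, and cluster 31, led by Ace, except for 1 TRIF-KO TNF cell in cluster 27. Summed macrophage markers in monocyte-like cells were 2011 CPM in TRIF-KO TNF, 465 in TRIF-KO PBS, 2731 in WT TNF and 237 in WT PBS. Erythroid markers summed to 8147 CPM in TRIF-KO TNF, against 683 in TRIF-KO PBS, 1054 in WT TNF and 1128 in WT PBS, and the part of either list in the result was not tested.

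Neutrophil-like cells were the class with most Socs3 in both PBS libraries and did not follow the other classes. The level was 344 CPM in TRIF-KO TNF, 312 in TRIF-KO PBS, 268 in WT TNF and 549 in WT PBS. The log2 ratio of TNF to PBS was 0.14 (-0.16 to 0.46) in TRIF-KO and -1.04 (-1.33 to -0.75) in WT, a difference of 1.17 (0.76 to 1.58). The WT ratio was under 2-fold with median-of-ratios scaling (-0.72) and after thinning (-0.95). Erythroid markers in this class summed to 10830 CPM in TRIF-KO TNF, 1244 in TRIF-KO PBS, 2046 in WT TNF and 2950 in WT PBS, and their part was not tested. Here too the clusters changed with treatment. Cluster 18, led by Csf3r and Cxcr2, held 99 TRIF-KO PBS and 162 WT PBS cells and no cell of the TNF libraries, with 387 and 615 CPM of Socs3. Cluster 21, led by Cxcl2 and Il1b, held 134 TRIF-KO TNF and 29 WT TNF cells, with 877 (809 to 951) and 482 (360 to 632) CPM. In cluster 16, led by the granule genes Ngp and Camp, 225 TRIF-KO TNF and 53 WT TNF cells had 194 and 203.5 CPM. Both TNF libraries thus had more Socs3 in cluster 21 than in cluster 16. The genotypes had similar levels in cluster 16, whereas in cluster 21 TRIF-KO TNF was above WT TNF with intervals that did not overlap.

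**Figure D3:**
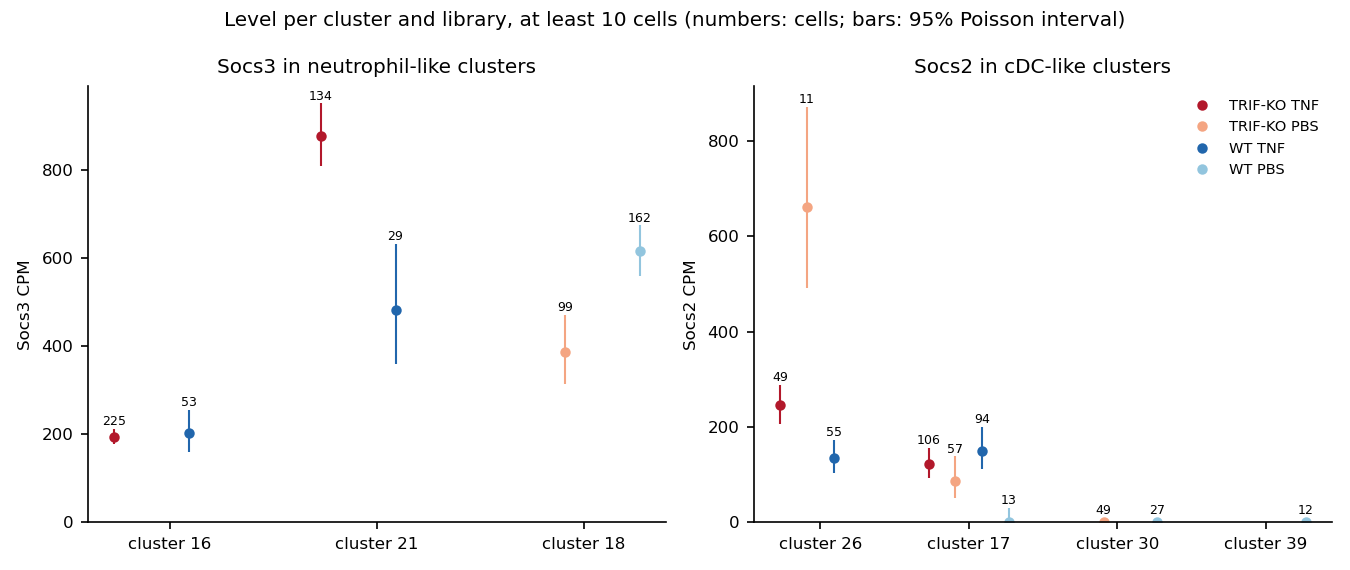
Socs3 in the neutrophil-like clusters (left) and Socs2 in the cDC-like clusters (right), in CPM, for libraries with at least 10 cells in the cluster. Numbers are cells and bars 95% Poisson intervals. Neutrophil-like cells of the TNF libraries sit in clusters 16 and 21 and those of the PBS libraries in cluster 18, apart from 4 TRIF-KO PBS and 5 WT PBS cells of cluster 16, which are too few to be drawn. Socs2 is at 0 in clusters 30 and 39.

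Socs3 in cDC-like cells had 80.0 CPM in TRIF-KO TNF, 5.11 in TRIF-KO PBS, 124 in WT TNF and 6.67 in WT PBS. Its log2 ratio was 3.97 (2.56 to 5.88) in TRIF-KO and 4.21 (3.04 to 5.70) in WT, and the PBS values rest on 4 and 6 UMIs. The cDC-like clusters changed with treatment too. Cluster 30 held 4 TRIF-KO TNF, 49 TRIF-KO PBS, 0 WT TNF and 27 WT PBS cells, and cluster 39 held 0, 6, 0 and 12. The part of these clusters in the ratios was not tested. Macrophage-like cells had 23.5 CPM in TRIF-KO TNF, 4.47 in TRIF-KO PBS, 87.8 in WT TNF and 19.9 in WT PBS, from 16, 2, 24 and 12 UMIs. The ratios of 2.39 (0.30 to 5.56) and 2.14 (1.08 to 3.27) came beside a median ratio of 0.62 and 0.91 over all measured genes of that class, and both were under the rule after thinning, at 0.83 and 0.51. Macrophage-like cells also changed cluster with treatment. Cluster 15 held 194 TRIF-KO TNF, 11 TRIF-KO PBS, 96 WT TNF and 6 WT PBS cells, and cluster 25 held 2, 88, 1 and 43. Of the 12 Socs3 UMIs in WT PBS, 11 came from the 8 cells of cluster 33, whose leading genes include the erythroid gene Alas2. Those 8 cells held 504203 UMIs of all genes, against 60737 in the 43 WT PBS cells of cluster 25. The WT PBS values of this class, and the WT ratios against them, thus rest mostly on cluster 33. Markers of erythroid cells made up 167700 CPM in TRIF-KO TNF, 332700 in TRIF-KO PBS, 163000 in WT TNF and 345600 in WT PBS macrophage-like cells, and their part was not tested. NK-like cells had less Socs3 than T-like cells in every library, at 25.9 CPM in TRIF-KO TNF, 19.8 in TRIF-KO PBS, 49.1 in WT TNF and 18.1 in WT PBS. Their ratio was 0.39 (-0.89 to 1.72) in TRIF-KO and 1.44 (0.15 to 2.86) in WT, from 8 to 17 UMIs per library. Erythroid-like cells had 22, 0, 9 and 1 Socs3 UMIs in TRIF-KO TNF, TRIF-KO PBS, WT TNF and WT PBS.

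Cish encodes a SOCS protein that restrains T-cell receptor and interleukin-2 signals. In T-like cells it had 13.2 CPM in TRIF-KO TNF, 9.94 in TRIF-KO PBS, 28.8 in WT TNF and 14.2 in WT PBS. WT TNF was the high library and the others lay close together. The log2 ratio was 0.41 (0.02 to 0.81) in TRIF-KO and 1.02 (0.61 to 1.44) in WT. The WT ratio was under 2-fold with at most 5% mitochondrial UMIs (0.77), after thinning (0.90) and with each cell weighted equally (0.79). Neutrophil-like cells had 62 Cish UMIs in TRIF-KO TNF, 2 in TRIF-KO PBS, 31 in WT TNF and 1 in WT PBS, or 19.9, 6.36, 66.4 and 1.21 CPM. The PBS UMIs lay in cluster 16, where 4 TRIF-KO PBS cells held 2 and 5 WT PBS cells held 1, and cluster 18 held none. Cish ratios in this class were 1.65 (-0.27 to 4.73) in TRIF-KO and 5.78 (3.19 to 11.12) in WT, and the response difference was -3.88 (-6.86 to -0.89). That difference no longer met the rule without the cell with most UMIs (-4.67) or after thinning (-2.35).

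In erythroid-like cells Cish went the other way. It had 3.95 CPM in TRIF-KO TNF, 11.1 in TRIF-KO PBS, 2.08 in WT TNF and 9.36 in WT PBS, with both TNF libraries below both PBS libraries. The log2 ratio was -1.48 (-2.13 to -0.82) in TRIF-KO and -2.17 (-3.37 to -1.10) in WT, and thinning gave -1.61 and 0.11. Neither ratio met the rule after thinning. At full depth the WT ratio came from 10 TNF and 30 PBS UMIs, at median depths of 12840 and 16200 UMIs per cell. Thinning to 2000 UMIs leaves few of these, so it cannot show whether the lower WT level depends on depth. NK-like cells had 11, 2, 11 and 11 Cish UMIs in TRIF-KO TNF, TRIF-KO PBS, WT TNF and WT PBS, which gave a ratio of 2.36 (0.16 to 5.57) in TRIF-KO and 0.35 (-0.998 to 1.70) in WT. No Cish UMI was found in 265 TRIF-KO TNF, 135 TRIF-KO PBS, 120 WT TNF and 60 WT PBS macrophage-like cells, at median depths of 1107, 1107, 958.5 and 1310 UMIs. A count of 0, taken as at most 3 cells, allows a share of cells with a UMI of up to 1.13%, 2.22%, 2.50% and 5%, and sets no limit on cells that express the gene. Monocyte-like, cDC-like and B-like cells had 16 UMIs or fewer per library.

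Socs2, which targets the growth hormone receptor, was concentrated in cDC-like cells. It had 180 CPM in TRIF-KO TNF, 85.6 in TRIF-KO PBS, 142 in WT TNF and 0 in WT PBS cDC-like cells, from 207, 67, 111 and 0 UMIs. The WT PBS library, with 54 such cells, stood apart. The log2 ratio of TNF to PBS was 1.07 (0.67 to 1.49) in TRIF-KO. In WT the level was 42.5-fold higher with TNF when the 0 of the WT PBS cells was set to a floor of 3 counts. The exact 95% interval of the WT ratio starts lower, at 33.97-fold. With classes set by a marker gate on each cell, the WT log2 ratio was 4.54. The TRIF-KO ratio was under 2-fold with at most 5% mitochondrial UMIs (0.95), after thinning (0.54) and with each cell weighted equally (0.47).

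Socs2 was found in 2 of the cDC-like clusters. Cluster 26, led by Fabp5, Tbc1d4 and Fscn1 (a gene of mature dendritic cells), had 245 CPM in 49 TRIF-KO TNF cells, 661 in 11 TRIF-KO PBS cells and 135 in 55 WT TNF cells, and held 2 WT PBS cells. Cluster 17, led by Cst3 and Apol7c, had 122 CPM in 106 TRIF-KO TNF cells, 86.4 in 57 TRIF-KO PBS cells, 151 in 94 WT TNF cells and 0 in 13 WT PBS cells. In cluster 26 the TRIF-KO level was thus lower with TNF (207 to 289 CPM) than with PBS (491 to 872 CPM), opposite to the class ratio. In cluster 17 the TRIF-KO intervals overlapped. No Socs2 UMI was found in cluster 30, with 4 TRIF-KO TNF, 49 TRIF-KO PBS and 27 WT PBS cells. Cluster 39, with 6 TRIF-KO PBS and 12 WT PBS cells, had none either. The part of the clusters in the class ratios was not tested. Median depth in cDC-like cells was 4673 UMIs in TRIF-KO TNF, 4994 in TRIF-KO PBS, 3931 in WT TNF and 14300 in WT PBS. The cDC-like cells of WT PBS also carried 7352 CPM of neutrophil markers, against 194 in TRIF-KO TNF, 20.4 in TRIF-KO PBS and 124 in WT TNF, and the part of this in the result was not tested. Among T-like cells Socs2 had 6.27 CPM in TRIF-KO TNF, 2.70 in TRIF-KO PBS, 5.23 in WT TNF and 1.56 in WT PBS, with ratios of 1.22 (0.52 to 1.97) in TRIF-KO and 1.75 (0.57 to 3.16) in WT. The TRIF-KO ratio was under 2-fold with at most 5% mitochondrial UMIs (0.79), and the WT ratio no longer met the rule after thinning (1.10). NK-like cells had 6, 4, 9 and 2 Socs2 UMIs in TRIF-KO TNF, TRIF-KO PBS, WT TNF and WT PBS, and the WT ratio of 2.52 (0.25 to 5.77) no longer met the rule without the cell with most UMIs, though it was as large (2.67). Macrophage-like cells had 12, 5, 1 and 1 Socs2 UMIs in the same order. B-like cells had 14 or fewer per library, and monocyte-like, neutrophil-like and erythroid-like cells 3 or fewer.

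The members divided the T-like cells differently. Cish was highest in regulatory T-like cells, which express Foxp3 and depend on interleukin-2, with 59.5 CPM in TRIF-KO TNF, 29.9 in TRIF-KO PBS, 108 in WT TNF and 91.2 in WT PBS. CD4 T-like cells had 6.96, 9.26, 21.9 and 6.77 CPM of Cish in the same libraries, and CD8 T-like cells 4.72, 3.90, 16.4 and 5.06. In CD4 T-like cells the Cish response to TNF was -0.41 (-1.15 to 0.33) in TRIF-KO and 1.69 (0.67 to 2.89) in WT, a difference of -2.04 (-3.25 to -0.84). The difference was -1.38 (-2.74 to -0.02) in CD8 T-like cells and -1.61 (-2.98 to -0.24) in T-like cells with NK genes. WT PBS had 9 Cish UMIs in CD4, 10 in CD8 and 9 in NK-gene T-like cells, which limits these values. In regulatory T-like cells the Cish response was 0.99 in TRIF-KO and 0.24 in WT, a difference of 0.73 (-0.18 to 1.65). The regulatory T-like class had 48 cells in WT PBS.

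Socs2 had 3 UMIs in CD4 T-like cells of TRIF-KO TNF, 0 in those of the other libraries and 0 in CD8 T-like cells of every library. It was found in regulatory T-like cells, at 18.8 CPM in TRIF-KO TNF, 29.9 in TRIF-KO PBS, 14.2 in WT TNF and 10.1 in WT PBS. T-like cells with NK genes, led by Ccl5 and Il2rb, had 34.02 CPM of Socs2 in TRIF-KO TNF, 4.15 in TRIF-KO PBS, 34.1 in WT TNF and 3.78 in WT PBS. In that subclass the log2 ratio was 3.03 (1.41 to 5.36) in TRIF-KO and 3.17 (1.48 to 5.54) in WT, each against 3 UMIs in the PBS library. Socs1 was at similar levels in the T-like subclasses of WT TNF, where it had 239 CPM in CD4, 230 in CD8, 257 in regulatory and 241 in NK-gene T-like cells. Its response to TNF was smaller in TRIF-KO than in WT by at least 1 log2 unit in CD4 (difference -1.65, -2.16 to -1.14) and CD8 T-like cells (-1.40, -1.79 to -1.004). Socs3 was highest in CD4 T-like cells, with 315 CPM in TRIF-KO TNF, 48.9 in TRIF-KO PBS, 561 in WT TNF and 78.2 in WT PBS.

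Among B-like cells, marginal zone B-like cells had 34.3 CPM of Socs3 in TRIF-KO TNF, 12.2 in TRIF-KO PBS, 94.0 in WT TNF and 15.2 in WT PBS. The other B-like cells had 68.6, 3.60, 166 and 4.43 CPM. The marginal zone cells were thus higher than the pooled others with PBS and lower with TNF. Clusters among the others varied. In TRIF-KO TNF, clusters 1 (29.5 to 42.5 CPM) and 6 (35.7 to 52.5) overlapped marginal zone cells (28.1 to 41.4), while clusters 0 and 4 were above them. With TRIF-KO PBS, cluster 6 (1.16 to 10.9) also overlapped them (7.47 to 18.9). Responses of the marginal zone cells were 1.49 in TRIF-KO and 2.62 in WT, against 4.25 and 5.23 in the pooled other B-like cells.

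**Figure D4:**
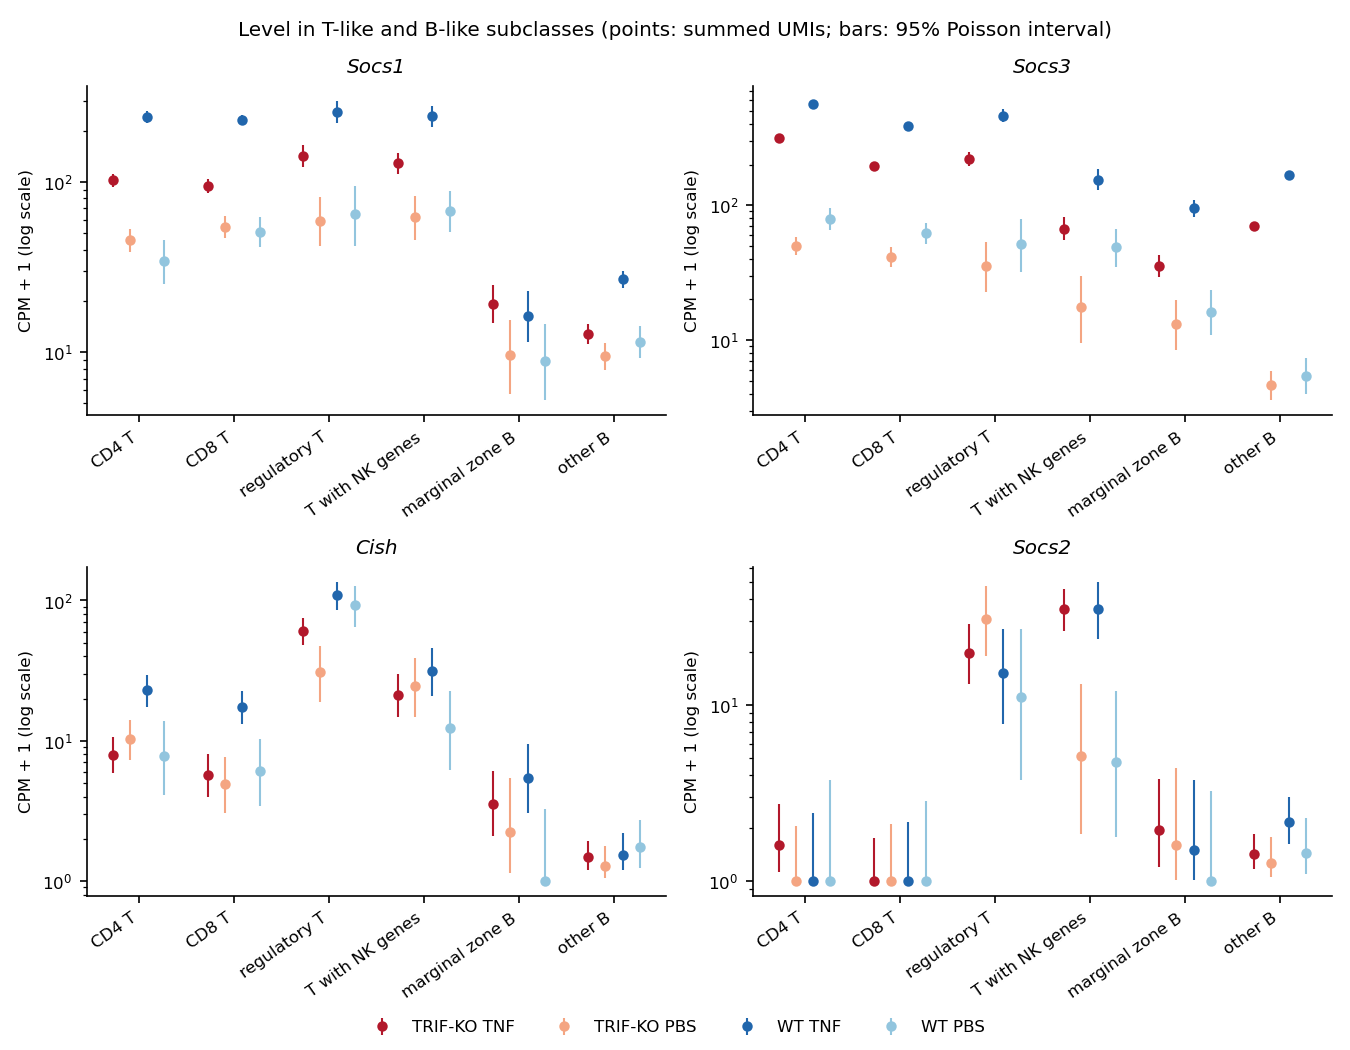
Level of each member (CPM + 1, log scale) in T-like and B-like subclasses, 1 point per library in the order TRIF-KO TNF, TRIF-KO PBS, WT TNF and WT PBS, with 95% Poisson intervals. Cish is highest in regulatory T-like cells, and Socs2 is seen in regulatory T-like cells and T-like cells with NK genes but is at or near 0 in CD4 and CD8 T-like cells.

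Under TNF, 7 of the 32 member-class pairs were at least 2-fold lower in TRIF-KO than in WT and 0 were higher, with 25 pairs over the 10-UMI minimum. Over all 72171 gene-class pairs, 3.77% were lower and 2.65% higher. The 7 were Socs1 in T-like cells, with a log2 ratio of -1.17 (-1.27 to -1.06), and in erythroid-like cells, Cish in T-like cells at -1.13 (-1.43 to -0.83) and neutrophil-like cells at -1.74 (-2.38 to -1.07), and Socs3 in B-like cells at -1.29 (-1.40 to -1.19), monocyte-like cells at -1.05 (-1.25 to -0.86) and macrophage-like cells at -1.90 (-2.91 to -0.93). The erythroid-like value of Socs1 compares 5 with 7 UMIs, in a class where all genes had a median log2 ratio of -0.46, and it changed sign after thinning (0.33). Socs3 in macrophage-like cells no longer met the rule with at most 5% mitochondrial UMIs (-1.23) or after thinning (-2.13). Socs3 in monocyte-like cells was under 2-fold without the top cell (-0.99), after thinning (-0.91) and with cells weighted equally (-0.79). Socs3 in T-like cells, at -0.90 (-0.97 to -0.83), lay just outside the 2-fold limit. Socs2 had no such pair, and its level in cDC-like cells was 180 CPM in TRIF-KO TNF and 142 in WT TNF.

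With PBS the genotypes differed in 4 pairs, 2 higher and 2 lower in TRIF-KO, of 19 over the minimum. Among all 69151 gene-class pairs 4.03% were higher and 4.24% lower. The higher pairs were both in cDC-like cells. Socs1 had 24.3 CPM there in TRIF-KO PBS and 4.44 in WT PBS, and Socs2 had 85.6 and 0 CPM. With the 0 set to the floor of 3 counts, Socs2 was 25.7-fold higher in TRIF-KO PBS. The exact 95% interval of its ratio starts lower, at 20.3-fold. Of the 67 Socs2 UMIs in TRIF-KO PBS, 50 came from 11 cells of cluster 26 and 17 from 57 cells of cluster 17. WT PBS had 2 and 13 cells in these clusters, and the part of this in the difference was not tested. The Socs1 pair no longer met the rule without the top cell (1.81) and reversed after thinning (-1.47). Lower in TRIF-KO PBS were Cish in NK-like cells at -2.65 (-5.87 to -0.46, from 2 and 11 UMIs) and Socs3 in monocyte-like cells at -1.14 (-1.63 to -0.67). After thinning neither met the rule, at -2.55 and -1.09, and the monocyte-like pair was under 2-fold with cells weighted equally (-0.95). Socs1 in T-like cells differed by 0.04 (-0.20 to 0.29) at baseline.

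The response to TNF itself differed between the genotypes by at least 1 log2 unit in 4 pairs, of 21 that had a UMI in each library and at least 20 in all. The response was smaller in TRIF-KO for Socs1 in T-like and cDC-like cells and Cish in neutrophil-like cells, and larger for Socs3 in neutrophil-like cells. The pairs in cDC-like cells and of Cish in neutrophil-like cells did not meet the rule without the top cell or after thinning. Over 69858 gene-class pairs, 5% had a response lower by 1 unit and 4.82% higher. In B-like cells the differences were -0.67 (-1.15 to -0.20) for Socs1 and -0.82 (-1.36 to -0.29) for Socs3, under that limit.

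Within single T-like cells, a Socs3 UMI was more frequent among cells with a Socs1 UMI than among those without it, after TNF. At 2000 UMIs per cell, a Socs3 UMI was present in 47.7% (41.5 to 54.0) of the TRIF-KO TNF cells with Socs1 and in 28.5% (25.9 to 31.3) of those without. The shares were 59.7% (54.5 to 64.8) and 49.4% (45.6 to 53.2) in WT TNF. Within subclasses of WT TNF the intervals overlapped, with 67.5% (59.5 to 74.9) against 59.4% (53.3 to 65.2) in CD4 and 58.6% (49.95 to 66.8) against 48.3% (42.2 to 54.5) in CD8 T-like cells. They did not overlap in TRIF-KO TNF, with 62.5% (52.5 to 71.8) against 36.4% (32.2 to 40.7) in CD4 and 50% (38.1 to 61.9) against 21.9% (17.8 to 26.5) in CD8 T-like cells. With PBS the shares over all T-like cells were 10.4% and 8.27% in TRIF-KO and 13.3% and 9.49% in WT, with overlapping intervals. The intervals are exact binomial and treat cells of 1 library as independent.

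Across the 32 class-by-library values, the levels of Socs1 and Cish had a Pearson correlation of 0.61 on the log2(CPM + 5) scale, Socs1 and Socs3 of 0.37, and Socs2 and Socs3 of 0.02. These points share libraries, depth and cells and are given as a description. Of 10900 genes compared, those most like Socs1 were Tnfrsf18 (0.90), a costimulatory receptor of T cells, Gbp4 (0.88), an interferon-inducible GTPase, and Tnfrsf9 (0.87), another costimulatory receptor. Socs3 was most like Pgs1 (0.89), Fas (0.85), a death receptor, and Batf (0.84), a transcription factor of lymphocytes. Cish was most like Acoxl (0.75), Rnf125 (0.75), a ubiquitin ligase, and Reck (0.73). The genes most like Socs2 were Nudt17 (0.86), Lad1 (0.85) and Bcl2l14 (0.85).

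Of the other family members, Socs4, Socs5, Socs6 and Socs7, only Socs4 passed the filter for measured genes (100 UMIs over the 4 libraries and 50 CPM in one), in 2 classes. In B-like cells Socs4 had 40.5 CPM in TRIF-KO TNF, 41.2 in TRIF-KO PBS, 39.7 in WT TNF and 56.6 in WT PBS. In cDC-like cells it was lower with TNF, at 27.0 CPM in TRIF-KO TNF, 58.8 in TRIF-KO PBS, 22.96 in WT TNF and 48.9 in WT PBS. Socs5, Socs6 and Socs7 had at most 48.9 CPM in any class and library. The ubiquitin ligase that SOCS boxes recruit (Elob, Eloc, Cul5 and Rnf7) had 1 of 23 measured gene-class pairs at least 2-fold higher in each genotype and 0 lower. These were Rnf7 in TRIF-KO and Eloc in WT, both in macrophage-like cells. All measured genes of that class had a median log2 ratio of 0.62 in TRIF-KO and 0.91 in WT. Over all measured pairs of all classes, 7.4% were higher in TRIF-KO and 10.2% in WT.

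Over all 21917 measured gene-class pairs, 7.4% were at least 2-fold higher with TNF and 8.32% lower in TRIF-KO, and 10.2% higher and 12.9% lower in WT, with median log2 ratios of -0.02 in TRIF-KO and -0.13 in WT. Of other JAK-STAT inhibitors (PIAS proteins, phosphatases, Usp18 and Sh2b3, 10 genes), 6 of 27 pairs were higher and 2 lower in TRIF-KO, and likewise 6 and 2 in WT. Ptpn1, a phosphatase of JAK2 and TYK2, was higher with TNF in B-like, monocyte-like, neutrophil-like, cDC-like and macrophage-like cells of both genotypes. In monocyte-like cells it had 1026 CPM in TRIF-KO TNF, 464 in TRIF-KO PBS, 1331 in WT TNF and 559 in WT PBS. Of the kinases, 2 of 15 pairs were higher in TRIF-KO and 4 in WT with 0 lower. Jak2 in cDC-like cells had 470 CPM in TRIF-KO TNF, 151 in TRIF-KO PBS, 559 in WT TNF and 197 in WT PBS. STATs were divided, with 4 of 31 pairs higher and 3 lower in TRIF-KO, and 6 higher and 5 lower in WT. Stat3 was higher with TNF in B-like and macrophage-like cells of both genotypes, and Stat5b was lower in neutrophil-like cells of both. In TRIF-KO monocyte-like cells Stat3 was lower, at 82.2 CPM with TNF against 185 CPM with PBS. Monocyte-like, neutrophil-like, cDC-like and macrophage-like cells changed cluster with treatment, and the part of this in these values was not tested. All measured macrophage-like genes had median log2 ratios of 0.62 in TRIF-KO and 0.91 in WT.

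Receptors had 7 of 83 pairs higher and 6 lower in TRIF-KO, and 14 higher and 9 lower in WT. The receptor that Socs3 restrains in neutrophils, Csf3r, was lower in neutrophil-like cells of the TNF libraries. It had 815 CPM in TRIF-KO TNF, 3057 in TRIF-KO PBS, 726 in WT TNF and 2660 in WT PBS. Csf3r is also a marker used to name neutrophil-like clusters. Cluster 18, which it leads, held 99 TRIF-KO PBS and 162 WT PBS cells and no cell of the TNF libraries. The part of this change of clusters was not tested. Ligands were seldom measured, with 6 pairs for 18 genes, 3 higher and 3 lower in TRIF-KO and 2 and 2 in WT. Ifng was lower with TNF in NK-like cells, at 44.5 CPM in TRIF-KO TNF, 97.2 in TRIF-KO PBS, 46.2 in WT TNF and 104 in WT PBS. STAT3 target genes had 21 of 57 higher and 2 lower in TRIF-KO, and 23 higher and 7 lower in WT, and STAT5 targets 9 of 32 higher and 1 lower in TRIF-KO, and 7 higher and 3 lower in WT. The median log2 ratios were 0.60 and 0.83 for STAT3 targets and 0.18 and 0.51 for STAT5 targets in TRIF-KO and WT. These lists were chosen with earlier results of the data known and are described by counts alone. Bcl3, a STAT3 target, stood in T-like cells at 69.2 CPM in TRIF-KO TNF, 12.2 in TRIF-KO PBS, 122 in WT TNF and 19.6 in WT PBS. Ccnd2, a STAT5 target, had 558 CPM in TRIF-KO TNF, 79.2 in TRIF-KO PBS, 687 in WT TNF and 37.8 in WT PBS cDC-like cells. The part of the change of cDC-like clusters in the Ccnd2 levels was not tested.

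**Figure D5:**
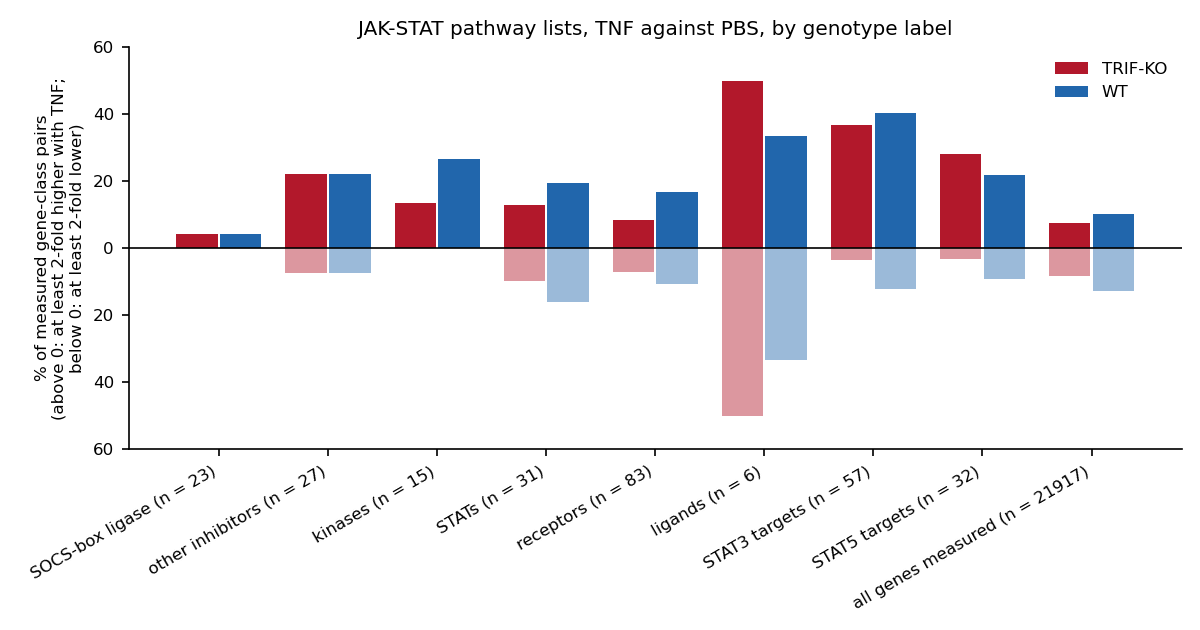
Share of measured gene-class pairs of 8 JAK-STAT lists that were at least 2-fold higher (above 0) or lower (below 0, paler) with TNF, for TRIF-KO left of WT, with the number of pairs (n) in the label. The bars at the right give all 21917 measured pairs. The STAT3 target list has higher pairs in 36.8% for TRIF-KO and 40.4% for WT.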

How the data were processed

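The deposited matrices hold raw UMI counts per gene and barcode, whole numbers, and their file headers name Cell Ranger 6.0.1. The submitters' processing notes list Cell Ranger 3.0, Seurat 4.1.1 and the build mm10. Kept cells had 200 or more genes and no more than 10% mitochondrial UMIs. The barcodes with the top Scrublet scores (scanpy 1.11.5) were taken out as doublets, 399 in TRIF-KO TNF, 256 in TRIF-KO PBS, 221 in WT TNF and 50 in WT PBS. The 4 libraries held 23614028 to 67276803 UMIs, and pairs of libraries shared 3 to 15 barcodes. Cells were clustered on 2000 variable genes without the members, pathway, response, sex-linked, mitochondrial, ribosomal, haemoglobin and receptor genes (30 principal components, 15 neighbours, Leiden resolution 1.5) and clusters were named by marker lists, so names are "-like". UMIs were summed per class and library to CPM. Ratios have exact conditional 95% intervals, CPM Poisson and shares Clopper-Pearson intervals, and response differences a normal approximation with 0.5 added to each count. The ratio calculation was tested on simulated data. Named genes are the members, up to 2 higher and 2 lower per list and class (of which the text gives a part), and the 3 genes most correlated with each member. The members and lists were chosen with earlier results of these data known. Library labels and groups come from the sample genotype and treatment fields. Scaling, filters, doublets, gating, depth, weighting and thresholds were varied. Results for 1 of the pathway lists are not reported here.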

Additional observations from a re-analysis of the deposited data

Results flagged for a closer look

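For Socs3 in neutrophil-like cells the ratio of TNF to PBS differed between the genotypes. On the log2 scale it was 0.14 in TRIF-KO, with an interval that included 0, and -1.04 in WT, where it was under 2-fold with median-of-ratios scaling (-0.72) and after thinning (-0.95). With 1 library per group the difference was not tested between mice. Neutrophil-like cells lay in clusters 16 and 21 in the TNF libraries and in cluster 18 in the PBS libraries, except for 4 TRIF-KO PBS and 5 WT PBS cells in cluster 16. Of the TNF cells, cluster 21, which had more Socs3, held 134 of 359 in TRIF-KO and 29 of 82 in WT. The part of these cluster shares in the result was not tested.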

How the results depend on the processing

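No paired analysis was possible because each group has 1 library, and for the same reason no library could be left out. After thinning to 2000 UMIs, 9 member-class pairs were at least 2-fold higher with TNF in WT (16 at full depth), 1 pair differed between genotypes with PBS (4 at full depth), and 3 ratios changed sign: Cish in WT erythroid-like cells with TNF (0.11), Socs1 in erythroid-like cells between genotypes under TNF (0.33) and Socs1 in cDC-like cells between genotypes with PBS (-1.47). With a 1.5-fold limit, 7 pairs differed between genotypes with PBS and 7 in their response (4 each at 2-fold). Without doublet removal, 7 pairs differed with PBS. Without the cell with most UMIs, 2 pairs differed in their response. With a minimum of 30 UMIs for measured genes, the pathway lists had 133 pairs at least 2-fold higher in WT (84 in the main count, each gene counted once). Pairs lower with TNF, 1 in TRIF-KO and 2 in WT, were 0 and 0 after thinning, and 1 in WT with median-of-ratios scaling. In TRIF-KO, 11 pairs were at least 2-fold higher or lower with TNF, and after thinning 7 were higher and 0 lower. The other total counts of each comparison, and of higher pairs with TNF, stayed within 1.5 times. Leaving out clusters of low UMI counts, an alternative chosen after seeing the data, left the 5 counts at 10, 16, 7, 4 and 4. Median-of-ratios scaling moved the median of all macrophage-like genes with TNF to -0.02 in TRIF-KO and -0.10 in WT, against 0.62 and 0.91 in CPM, and that of neutrophil-like genes to -0.08 and -0.06, against -0.42 and -0.37. The causes were not tested. NK-like, monocyte-like and macrophage-like classes had few UMIs of Socs2 and Cish, which limits those values.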
